A study of Mus musculus with 17 samples.

Results

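The TGF-beta and BMP signaling genes are 42 genes chosen by name: ligands, their extracellular binding proteins and antagonists, receptors, SMADs and the ID genes. They and the lists of other pathway genes used below were chosen with earlier results of these data known. Counts of them set beside the share of all genes are therefore a description. All 42 were found among the 55450 genes of the bulk table, through the gene names carried by the single-cell tables, and 38 reached at least 1 TPM (transcript counts per length and scaled to a fixed total) in at least 2 libraries and were tested. RNA was sequenced in bulk from 14 libraries (7 groups of 2) and from single cells in 3 libraries, 1 each for CD44high lung-derived cells (lungH), CD44low lung-derived cells (lungL) and CD44high LN-derived cells (lymphH). All came from female FVB/NJ mice carrying the MMTV-PyMT transgene, in which the mouse mammary tumor virus promoter drives polyoma middle T antigen mainly in the mammary epithelium. Lines were grown for about a month from tumor-bearing lung, bone marrow (BM) or lymph node (LN), then sorted as CD44low/EpCAMhigh or CD44high/EpCAMhigh, and each replicate was a distinct clonal isolate from a different mouse. The mammary fat pad (MFP) group is labelled as primary tumor and has no CD44 status, although the methods also speak of MFP-derived cells.

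TGF-beta is secreted in a latent complex that the LTBP proteins tether to the matrix, and once freed it binds a type II and a type I serine/threonine kinase receptor, which phosphorylate SMAD2 and SMAD3. Activins use the same SMADs through other receptors, while BMPs act through SMAD1, SMAD5 and SMAD9, and both arms share SMAD4. Outside the cell, follistatins, gremlin, noggin and chordin bind activins or BMPs. Inside it, SMAD6 and SMAD7 inhibit the receptors, and the ID genes are classical BMP targets. In breast cancer TGF-beta is known both for growth arrest of epithelium and for epithelial-mesenchymal transition.

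Each library had 11508 to 13052 genes at 1 TPM or more, and the reads per library are not kept in TPM, so the counting error of low values is unknown. Replicates differed most in BM CD44low, where 12 of the 38 tested members were higher by over 1 log2 unit in replicate 2. The median absolute difference between replicates over the tested members was 0.607 log2 units there, 0.542 in LN CD44low and 0.217 to 0.435 in the other groups. The labels were not matched by every marker. *Epcam*, which encodes the sorted antigen, was listed at 0 and 0 TPM in lung CD44low and stood at 0.23 and 0.86 TPM in lung CD44high, against 315 to 941 TPM in the other 10 libraries. *Cd44* mRNA stood at 147 and 82.7 TPM in LN CD44low and 49.04 and 52.3 in LN CD44high, against the direction of the label, and at 12.2 and 21.6 TPM in lung CD44low and 21.9 and 12.1 in lung CD44high. The summed level of 10 fibroblast markers was 4789 to 5230 TPM in lung CD44low, 103 to 216 TPM in lung CD44high and 0.5 to 46.2 TPM elsewhere. That of 10 epithelial markers was 2.43 to 2.61 TPM, 16.0 to 87.7 TPM and 2256 to 8328 TPM in the same order. *Dcn* made up most of the fibroblast sum, at 4091 and 4315 TPM in lung CD44low and 166 and 78.9 in lung CD44high. Of the 10 fibroblast markers, 9 reached 1 TPM in both lung CD44low libraries and 4 in both lung CD44high libraries, as many as in BM CD44high. In lung CD44low, 6 of the 10 epithelial markers were listed at 0 in both libraries (*Epcam*, *Cdh1*, *Krt8*, *Krt19*, *Cldn4* and *Esrp1*). The summed levels of these lists move with the lung groups, and their part in the differences given here was not tested. In bulk RNA fewer cells of a type cannot be told apart from less RNA per cell.

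Of the 38 tested members, 17 had their highest group mean in lung CD44low and 11 in lung CD44high, against 26.4% and 20.9% of the 15348 genes tested. Of these members, *Fstl1*, *Bmp2*, *Gdf15* and *Grem1* reached 1 TPM in lung CD44low alone and *Nog* in lung CD44high alone, so they entered the test only through the group where they are high, and their place in that tally was fixed by the filter. Among the 33 others the numbers were 13 and 10. Compared with MFP, 20 members were higher and 2 lower in lung CD44low, and 15 were higher and 5 lower in lung CD44high (limma on log2(TPM + 1), Benjamini-Hochberg adjusted p under 0.05 over all tested genes). Without the 5 members that passed the filter through 1 group, these were 16 and 2, and 14 and 5. The background was 45% and 36.1% of all genes called in either direction, with 21.9% and 14.9% called higher and 23.1% and 21.2% called lower. The median log2 difference of the members was 1.56 and 0.41, beside 0 and -0.04 over all genes. Compared with the LN and BM lines together, 27 members were higher and 4 lower in the lung lines, where 59.9% of all genes were called (35.9% higher, 24% lower) and the medians were 1.16 for members and 0.20 for all genes. All 4 lung libraries lay above all 8 LN and BM libraries for 10 of the 27 members and below them for 3 of the 4. How many of all genes were separated in this way was not counted. The libraries overlapped for the other 17 and 1, among them *Grem1*, *Fstl1* and *Gdf15*, at or near 0 in lung CD44high, and *Fstl3*, which was lowest there. Without the 5 members named above, 22 were higher and 4 lower. When libraries were scaled by the median ratio of genes, the counts were 24 and 4, where 29.9% of all genes were higher and 30.3% lower.

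Fewer members passed in the LN and BM lines against MFP. LN CD44low had 6 members higher and none lower, LN CD44high 5 and 7, BM CD44low 4 and 6, and BM CD44high 5 and 10. The background of genes called in either direction was 14%, 23.8%, 23.2% and 27.0% in that order, and the members' shares were 15.8%, 31.6%, 26.3% and 39.5%. Higher calls alone made up 4.5%, 5.87%, 9.36% and 8.38% of all genes and lower calls 9.51%, 17.9%, 13.8% and 18.6%. All 6 comparisons share the same MFP libraries. Median-ratio scaling raised the median of all genes by 0.32 log2 units in LN CD44high against MFP and by 0.37 in BM CD44high against MFP, and it left 5 higher and 5 lower members, and 5 higher and 7 lower members, there. Under that scaling 9.05% and 11.9% of all genes were higher and 7.81% and 8.19% lower in the same 2 comparisons. In LN CD44low and BM CD44low against MFP the scaled counts were 6 higher and 0 lower, and 6 higher and 5 lower, where 5.5% and 11.4% of all genes were higher and 5.87% and 8.51% lower. With a log2 difference over 2 also required, 10 members passed in lung CD44high against MFP (13.5% of all genes) and 12 in the lung lines against LN and BM (12.7%). *Fstl1* and *Grem1*, which passed the filter through lung CD44low alone, were among the 12. *Smad4* and *Smad5* passed in none of the 12 comparisons, and 36 of 38 passed in at least 1, as did 79.8% of all genes.

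**Figure D1:**
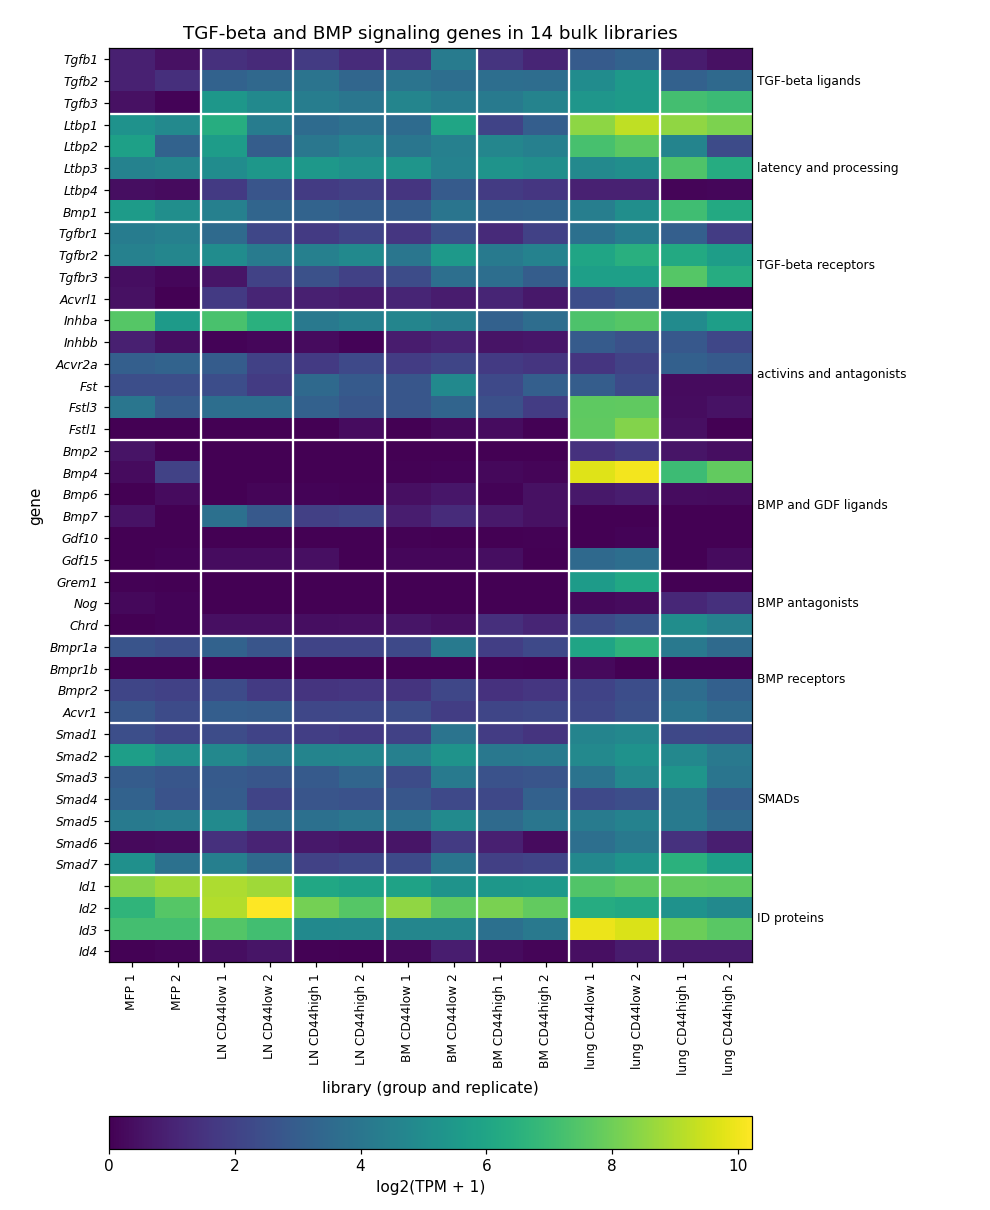
Level of each of the 42 genes (rows, grouped by role) in each bulk library (columns, 2 per group), as log2(TPM + 1). *Bmp4*, *Bmpr1a*, *Smad6* and *Id3* reach their highest values in the 2 lung CD44low libraries, and *Grem1* and *Fstl1* stand at 0.33 TPM or less outside that group.

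Among the TGF-beta ligands, *Tgfb2* and *Tgfb3* were higher than MFP in every tissue-derived group, and the lung groups split between them. *Tgfb3* stood at 0.37 and 0.06 TPM in MFP, 42.1 and 28.00 in LN CD44low and 19.3 and 15.02 in LN CD44high. In BM, *Tgfb3* stood at 24.2 and 18.7 TPM in CD44low and 17.4 and 22.7 in CD44high. In lung, *Tgfb3* stood at 39.98 and 46.7 TPM in CD44low and 142 and 125 in CD44high. No tissue-derived library overlapped MFP, and lung CD44high was highest. Against MFP, the smallest difference (± SE throughout) was in LN CD44high (log2 difference 3.90 ± 0.27, adjusted p = 9.98e-06) and the largest in lung CD44high (log2 difference 6.80 ± 0.27, adjusted p = 1.27e-07). *Tgfb2* stood at 0.94 and 1.62 TPM in MFP, 8.34 and 10.04 in LN CD44low and 14.2 and 9.39 in LN CD44high. In BM, *Tgfb2* stood at 14.5 and 12.1 TPM in CD44low and 12.1 and 11.7 in CD44high. In lung, *Tgfb2* stood at 30.5 and 44.1 TPM in CD44low and 7.92 and 10.3 in CD44high. It was highest in lung CD44low (log2 difference 4.06 ± 0.30, adjusted p = 2.88e-06), and lung CD44high was lower than lung CD44low (log2 difference -1.91 ± 0.30, adjusted p = 0.000929). *Tgfb3* went the other way between the same lines (log2 difference 1.60 ± 0.27, adjusted p = 0.00164). *Tgfb1*, the ligand most studied in tumors, was low throughout, at 0.89 and 0.36 TPM in MFP, 1.70 and 1.32 in LN CD44low and 2.44 and 1.38 in LN CD44high. In BM, *Tgfb1* stood at 1.72 and 17.97 TPM in CD44low and 1.90 and 1.10 in CD44high. In lung, *Tgfb1* stood at 6.62 and 8.20 TPM in CD44low and 0.71 and 0.37 in CD44high. The single high value was BM CD44low replicate 2, which its partner did not share. *Tgfb1* was higher in lung CD44low than in MFP (log2 difference 2.38 ± 0.70, adjusted p = 0.0192, not passing without lung CD44low replicate 1 or 2 or MFP replicate 1 or 2, adjusted p up to 0.102) and lower in lung CD44high than in lung CD44low (log2 difference -2.45 ± 0.70, adjusted p = 0.0248, not passing without lung CD44low replicate 1 or 2 or lung CD44high replicate 1 or 2, adjusted p up to 0.126).

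Among the latency and processing genes, *Ltbp1*, which anchors latent TGF-beta in the matrix, stood at 36.4 and 27.2 TPM in MFP, 81.98 and 18.5 in LN CD44low and 10.9 and 13.3 in LN CD44high. In BM, *Ltbp1* stood at 10.9 and 64.3 TPM in CD44low and 3.17 and 7.27 in CD44high. In lung, *Ltbp1* stood at 359 and 606 TPM in CD44low and 372 and 296 in CD44high. All 4 lung libraries lay above the other 10, and lung exceeded LN and BM lines (log2 difference 4.53 ± 0.49, adjusted p = 3.46e-05). *Ltbp2*, a relative that does not bind latent TGF-beta, stood at 54.8 and 8.36 TPM in MFP, 49.8 and 6.99 in LN CD44low and 15.5 and 22.2 in LN CD44high. In BM, *Ltbp2* stood at 15.1 and 20.9 TPM in CD44low and 25.1 and 20.9 in CD44high. In lung, *Ltbp2* stood at 153 and 199 TPM in CD44low and 23.2 and 4.06 in CD44high. The MFP and LN CD44low replicates were far apart for this gene, and the fall from lung CD44low to lung CD44high (log2 difference -3.99 ± 1.01, adjusted p = 0.0146, not passing without lung CD44low replicate 1 or 2 or lung CD44high replicate 2, adjusted p up to 0.111, log2 difference -5.12 to -2.86) was measured against replicates of lung CD44high that also differed widely. *Ltbp3* stood at 22.3 and 24.6 TPM in MFP, 30.8 and 41.4 in LN CD44low and 43.1 and 35.1 in LN CD44high. In BM, *Ltbp3* stood at 38.99 and 22.4 TPM in CD44low and 36.9 and 32.4 in CD44high. In lung, *Ltbp3* stood at 27.2 and 32.05 TPM in CD44low and 169.8 and 79.99 in CD44high. *Bmp1*, a protease that cleaves procollagen and chordin, stood at 48.5 and 31.8 TPM in MFP, 21.1 and 9.23 in LN CD44low and 8.60 and 7.19 in LN CD44high. In BM, *Bmp1* stood at 6.91 and 14.6 TPM in CD44low and 8.31 and 8.91 in CD44high. In lung, *Bmp1* stood at 19.9 and 32.2 TPM in CD44low and 136 and 73.00 in CD44high. Both were highest in lung CD44high and higher there than in lung CD44low (*Ltbp3* log2 difference 1.95 ± 0.36, adjusted p = 0.00278; *Bmp1* log2 difference 1.93 ± 0.47, adjusted p = 0.0124, not passing without lung CD44low replicate 1 or lung CD44high replicate 1, adjusted p up to 0.104, log2 difference 1.49 to 2.38). *Bmp1* was lower than MFP in LN CD44high (log2 difference -2.18 ± 0.47, adjusted p = 0.00873, not passing without LN CD44high replicate 2 or MFP replicate 1, adjusted p up to 0.0716), BM CD44low (log2 difference -1.86 ± 0.47, adjusted p = 0.0192, not passing without BM CD44low replicate 1 or MFP replicate 1, adjusted p up to 0.128, log2 difference -2.35 to -1.37) and BM CD44high (log2 difference -2.07 ± 0.47, adjusted p = 0.0104, not passing without BM CD44high replicate 1 or MFP replicate 1, adjusted p up to 0.0798). *Ltbp4* stood at 0.31 and 0.22 TPM in MFP, 2.31 and 5.56 in LN CD44low and 2.44 and 2.78 in LN CD44high. In BM, *Ltbp4* stood at 1.98 and 6.73 TPM in CD44low and 2.43 and 2.03 in CD44high. In lung, *Ltbp4* stood at 0.94 and 0.90 TPM in CD44low and 0.11 and 0.13 in CD44high. It was lower in the lung lines than in the LN and BM lines, with no overlap (log2 difference -1.45 ± 0.26, adjusted p = 0.00094). Against MFP it was higher in LN CD44low (log2 difference 1.88 ± 0.43, adjusted p = 0.0162, not passing without LN CD44low replicate 2 or MFP replicate 1 or 2, adjusted p up to 0.105, log2 difference 1.39 to 2.38) and LN CD44high (log2 difference 1.51 ± 0.43, adjusted p = 0.0294, not passing in 6 of the 14 fits that left out 1 library, adjusted p up to 0.127). In BM it was higher than MFP in CD44low (log2 difference 1.92 ± 0.43, adjusted p = 0.0102, not passing without MFP replicate 1 or 2, adjusted p up to 0.0628, log2 difference 1.24 to 2.61) and CD44high (log2 difference 1.35 ± 0.43, adjusted p = 0.0419, not passing in 10 of the 14 fits that left out 1 library, adjusted p up to 0.17).

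For the TGF-beta receptors, the coreceptor *Tgfbr3* (betaglycan, which presents ligand to the type II receptor) showed the widest range. It stood at 0.29 and 0.14 TPM in MFP, 0.51 and 3.08 in LN CD44low and 4.87 and 2.96 in LN CD44high. In BM, *Tgfbr3* stood at 4.23 and 12.4 TPM in CD44low and 11.8 and 7.16 in CD44high. In lung, *Tgfbr3* stood at 53.7 and 53.3 TPM in CD44low and 182 and 80.2 in CD44high. All 4 lung libraries lay above the other 10, and the difference from MFP passed in lung CD44low (log2 difference 5.49 ± 0.59, adjusted p = 4.90e-05) and in lung CD44high (log2 difference 6.65 ± 0.59, adjusted p = 2.23e-05, 6.07 without lung CD44high replicate 1 and 7.24 without lung CD44high replicate 2). Between the lung lines the difference did not pass (log2 difference 1.16 ± 0.59, adjusted p = 0.173). It was also higher than MFP in LN CD44high (log2 difference 1.99 ± 0.59, adjusted p = 0.0354, not passing in 6 of the 14 fits that left out 1 library, adjusted p up to 0.179), BM CD44low (log2 difference 2.79 ± 0.59, adjusted p = 0.00789, not passing without BM CD44low replicate 2 or MFP replicate 2, adjusted p up to 0.0529, log2 difference 2.11 to 3.47) and BM CD44high (log2 difference 3.08 ± 0.59, adjusted p = 0.00427). The type II receptor *Tgfbr2* stood at 21.6 and 24.8 TPM in MFP, 30.6 and 18.3 in LN CD44low and 20.9 and 28.1 in LN CD44high. In BM, *Tgfbr2* stood at 14.99 and 44.2 TPM in CD44low and 16.9 and 22.4 in CD44high. In lung, *Tgfbr2* stood at 63.8 and 85.96 TPM in CD44low and 72.5 and 50.3 in CD44high. The lung lines lay above the LN and BM lines (log2 difference 1.49 ± 0.28, adjusted p = 0.00114). The type I receptor *Tgfbr1* stood at 18.6 and 20.9 TPM in MFP, 10.6 and 3.51 in LN CD44low and 2.38 and 3.34 in LN CD44high. In BM, *Tgfbr1* stood at 2.05 and 4.68 TPM in CD44low and 1.33 and 2.89 in CD44high. In lung, *Tgfbr1* stood at 12.8 and 18.5 TPM in CD44low and 7.44 and 2.56 in CD44high. It was lower than MFP in LN CD44high (log2 difference -2.43 ± 0.56, adjusted p = 0.0112, not passing without LN CD44high replicate 1 or MFP replicate 1 or 2, adjusted p up to 0.0734), BM CD44low (log2 difference -2.31 ± 0.56, adjusted p = 0.0147, not passing without BM CD44low replicate 1 or MFP replicate 1 or 2, adjusted p up to 0.0825), BM CD44high (log2 difference -2.78 ± 0.56, adjusted p = 0.00527) and lung CD44high (log2 difference -1.92 ± 0.56, adjusted p = 0.0225, not passing without lung CD44high replicate 2 or MFP replicate 1 or 2, adjusted p up to 0.159, log2 difference -2.54 to -1.29). *Acvrl1* (ALK1, a type I receptor best known in endothelium) stood at 0.38 and 0 TPM in MFP, 2.38 and 1.11 in LN CD44low and 0.84 and 0.74 in LN CD44high. In BM, *Acvrl1* stood at 1.09 and 0.70 TPM in CD44low and 1.08 and 0.60 in CD44high. In lung, *Acvrl1* stood at 4.35 and 5.60 TPM in CD44low and 0 and 0 in CD44high. It was higher than MFP in lung CD44low (log2 difference 2.34 ± 0.28, adjusted p = 0.0001) and LN CD44low (log2 difference 1.18 ± 0.28, adjusted p = 0.0188, not passing without LN CD44low replicate 1 or MFP replicate 2, adjusted p up to 0.137, log2 difference 0.84 to 1.52), and both lung CD44high libraries were listed at 0 (adjusted p = 7.86e-05 between the lung lines). The 5 endothelial markers summed to at most 0.21 TPM in any library.

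Among the activins and their antagonists, 2 follistatin-like genes changed most. *Fstl1*, a secreted glycoprotein of mesenchymal cells, stood at 0 and 0 TPM in MFP, 0 and 0 in LN CD44low and 0 and 0.26 in LN CD44high. In BM, *Fstl1* stood at 0 and 0.18 TPM in CD44low and 0.26 and 0.05 in CD44high. In lung, *Fstl1* stood at 211 and 324 TPM in CD44low and 0.33 and 0 in CD44high. It was present in both lung CD44low libraries and at or near 0 in the other 12. It passed the filter on low values through that group alone, so its values are a description. *Fstl3*, an activin and myostatin inhibitor, stood at 15.4 and 6.56 TPM in MFP, 12.1 and 11.9 in LN CD44low and 7.94 and 5.72 in LN CD44high. In BM, *Fstl3* stood at 5.59 and 8.80 TPM in CD44low and 4.58 and 2.50 in CD44high. In lung, *Fstl3* stood at 208 and 212 TPM in CD44low and 0.27 and 0.42 in CD44high. It was highest in lung CD44low (log2 difference 4.24 ± 0.39, adjusted p = 1.58e-05 against MFP) and lowest in lung CD44high (log2 difference -3.05 ± 0.39, adjusted p = 0.000235 against MFP), so MFP, LN and BM lay between the 2 lung groups. *Fst*, which binds activin, stood at 4.56 and 4.53 TPM in MFP, 4.40 and 2.42 in LN CD44low and 10.2 and 6.51 in LN CD44high. In BM, *Fst* stood at 5.62 and 27.8 TPM in CD44low and 3.80 and 7.57 in CD44high. In lung, *Fst* stood at 7.16 and 3.95 TPM in CD44low and 0.22 and 0.22 in CD44high. It too was lowest in lung CD44high (log2 difference -2.18 ± 0.62, adjusted p = 0.0195, not passing without lung CD44high replicate 1 or 2 or MFP replicate 1 or 2, adjusted p up to 0.0841 against MFP; log2 difference -2.38 ± 0.62, adjusted p = 0.0159, not passing without lung CD44low replicate 1 or lung CD44high replicate 1 or 2, adjusted p up to 0.12 against lung CD44low).

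*Inhba*, which encodes the subunit of activin A, stood at 186 and 46.3 TPM in MFP, 157 and 88.3 in LN CD44low and 16.4 and 20.9 in LN CD44high. In BM, *Inhba* stood at 23.9 and 19.9 TPM in CD44low and 7.98 and 11.5 in CD44high. In lung, *Inhba* stood at 164 and 185 TPM in CD44low and 29.4 and 52.1 in CD44high. It was lower in lung CD44high than in lung CD44low (log2 difference -2.13 ± 0.56, adjusted p = 0.0174, not passing without lung CD44low replicate 1 or 2 or lung CD44high replicate 1, adjusted p up to 0.122). In LN, both CD44high libraries were below both CD44low libraries but the difference did not pass (log2 difference -2.60 ± 0.56, adjusted p = 0.111). It was lower than MFP in LN CD44high (log2 difference -2.27 ± 0.56, adjusted p = 0.0162, not passing without LN CD44high replicate 1 or 2 or MFP replicate 1, adjusted p up to 0.0933, log2 difference -3.26 to -1.27), BM CD44low (log2 difference -2.05 ± 0.56, adjusted p = 0.0259, not passing without BM CD44low replicate 2 or MFP replicate 1, adjusted p up to 0.159, log2 difference -3.04 to -1.05) and BM CD44high (log2 difference -3.15 ± 0.56, adjusted p = 0.00282, -4.14 without MFP replicate 2 and -2.16 without MFP replicate 1), where the MFP replicates themselves were 186 and 46.3 TPM. *Inhbb*, for activin B, stood at 0.84 and 0.30 TPM in MFP, 0.07 and 0.14 in LN CD44low and 0.24 and 0.07 in LN CD44high. In BM, *Inhbb* stood at 0.73 and 1.04 TPM in CD44low and 0.45 and 0.53 in CD44high. In lung, *Inhbb* stood at 6.61 and 4.77 TPM in CD44low and 5.99 and 3.58 in CD44high. All 4 lung libraries exceeded the other 10 (log2 difference 2.16 ± 0.17, adjusted p = 3.28e-06 against LN and BM). The type II receptor *Acvr2a* stood at 7.63 and 8.68 TPM in MFP, 6.84 and 2.98 in LN CD44low and 2.35 and 3.72 in LN CD44high. In BM, *Acvr2a* stood at 2.50 and 3.44 TPM in CD44low and 2.36 and 1.97 in CD44high. In lung, *Acvr2a* stood at 2.02 and 3.08 TPM in CD44low and 7.69 and 6.40 in CD44high. It was lower than MFP in LN CD44high (log2 difference -1.20 ± 0.36, adjusted p = 0.0368, not passing in 8 of the 14 fits that left out 1 library, adjusted p up to 0.208, log2 difference -1.45 to -0.95), BM CD44low (log2 difference -1.21 ± 0.36, adjusted p = 0.0359, not passing in 7 of the 14 fits that left out 1 library, adjusted p up to 0.155) and BM CD44high (log2 difference -1.53 ± 0.36, adjusted p = 0.0117, not passing without BM CD44high replicate 1 or 2 or MFP replicate 2, adjusted p up to 0.0703). It was also lower in lung CD44low than in MFP (log2 difference -1.38 ± 0.36, adjusted p = 0.0109, not passing without lung CD44low replicate 1 or MFP replicate 2, adjusted p up to 0.081) and higher in lung CD44high than in lung CD44low (log2 difference 1.19 ± 0.36, adjusted p = 0.0313, not passing without lung CD44low replicate 1 or 2 or lung CD44high replicate 1 or 2, adjusted p up to 0.178).

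Among the members, the largest difference from MFP was in the BMP arm. *Bmp4*, a BMP ligand of mesenchyme, stood at 0.24 and 3.07 TPM in MFP, 0 and 0 in LN CD44low and 0 and 0 in LN CD44high. In BM, *Bmp4* stood at 0.05 and 0.08 TPM in CD44low and 0.16 and 0.11 in CD44high. In lung, *Bmp4* stood at 840.2 and 1055 TPM in CD44low and 128 and 216 in CD44high. The lowest lung library stood at 128 TPM and no other library exceeded 3.07 TPM. It was higher than MFP in lung CD44low (log2 difference 8.71 ± 0.48, adjusted p = 3.60e-07, 7.86 without MFP replicate 1 and 9.57 without MFP replicate 2) and in lung CD44high (log2 difference 6.22 ± 0.48, adjusted p = 8.34e-06, 5.36 without MFP replicate 1 and 7.07 without MFP replicate 2), and lung CD44high was below lung CD44low (log2 difference -2.50 ± 0.48, adjusted p = 0.00341). *Bmp2*, the closest relative of *Bmp4*, was low, at 0.45 and 0.03 TPM in MFP, 0 and 0 in LN CD44low and 0 and 0 in LN CD44high. In BM, *Bmp2* stood at 0 and 0 TPM in CD44low and 0 and 0 in CD44high. In lung, *Bmp2* stood at 1.76 and 2.35 TPM in CD44low and 0.50 and 0.31 in CD44high. It reached 1 TPM in lung CD44low alone. *Bmp7*, an epithelial BMP, had the opposite distribution, at 0.42 and 0 TPM in MFP, 12.7 and 6.23 in LN CD44low and 2.84 and 3.28 in LN CD44high. In BM, *Bmp7* stood at 0.77 and 1.41 TPM in CD44low and 0.62 and 0.38 in CD44high. In lung, *Bmp7* stood at 0 and 0.02 TPM in CD44low and 0 and 0 in CD44high. It was highest in LN CD44low (log2 difference 3.06 ± 0.31, adjusted p = 0.000133 against MFP), was also higher than MFP in LN CD44high (log2 difference 1.77 ± 0.31, adjusted p = 0.00314), and lay at 0 or 0.02 TPM in the lung lines. *Gdf15*, a stress-induced TGF-beta family cytokine, stood at 0 and 0.08 TPM in MFP, 0.25 and 0.28 in LN CD44low and 0.32 and 0 in LN CD44high. In BM, *Gdf15* stood at 0.12 and 0.14 TPM in CD44low and 0.30 and 0 in CD44high. In lung, *Gdf15* stood at 10.2 and 11.8 TPM in CD44low and 0 and 0.23 in CD44high. Both lung CD44low libraries lay above the other 12, and the gene passed the filter through that group alone. *Bmp6* ranged from 0 to 0.77 TPM and *Gdf10* from 0 to 0.06 TPM, and neither was tested.

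Of the 3 BMP antagonists, *Grem1* was highest in lung CD44low, and *Chrd* and *Nog* in lung CD44high. *Grem1* (gremlin, which binds BMP2, BMP4 and BMP7) stood at 0.03 and 0 TPM in MFP, 0 and 0 in LN CD44low and 0 and 0 in LN CD44high. In BM, *Grem1* stood at 0 and 0 TPM in CD44low and 0 and 0 in CD44high. In lung, *Grem1* stood at 47.6 and 67.5 TPM in CD44low and 0 and 0 in CD44high. It was read in both lung CD44low libraries and at 0.03 TPM in 1 MFP library, and was listed at 0 in the other 11. It entered the tests through that group alone, so its values are a description. *Chrd* (chordin) stood at 0 and 0.07 TPM in MFP, 0.35 and 0.35 in LN CD44low and 0.31 and 0.35 in LN CD44high. In BM, *Chrd* stood at 0.48 and 0.33 TPM in CD44low and 1.58 and 1.07 in CD44high. In lung, *Chrd* stood at 4.12 and 5.38 TPM in CD44low and 30.96 and 21.8 in CD44high. *Nog* (noggin) stood at 0.15 and 0.07 TPM in MFP, 0 and 0 in LN CD44low and 0 and 0 in LN CD44high. In BM, *Nog* stood at 0 and 0 TPM in CD44low and 0 and 0 in CD44high. In lung, *Nog* stood at 0.18 and 0.23 TPM in CD44low and 1.18 and 1.71 in CD44high. *Chrd* was higher in lung CD44high than in lung CD44low (log2 difference 2.24 ± 0.24, adjusted p = 8.09e-05). *Nog* reached 1 TPM in lung CD44high alone and stayed under 2 TPM. *Chrd* was also higher than MFP in lung CD44low (log2 difference 2.47 ± 0.24, adjusted p = 2.64e-05) and, at under 2 TPM, in BM CD44high (log2 difference 1.16 ± 0.24, adjusted p = 0.00672, not passing without BM CD44high replicate 1, adjusted p up to 0.0611).

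**Figure D2:**
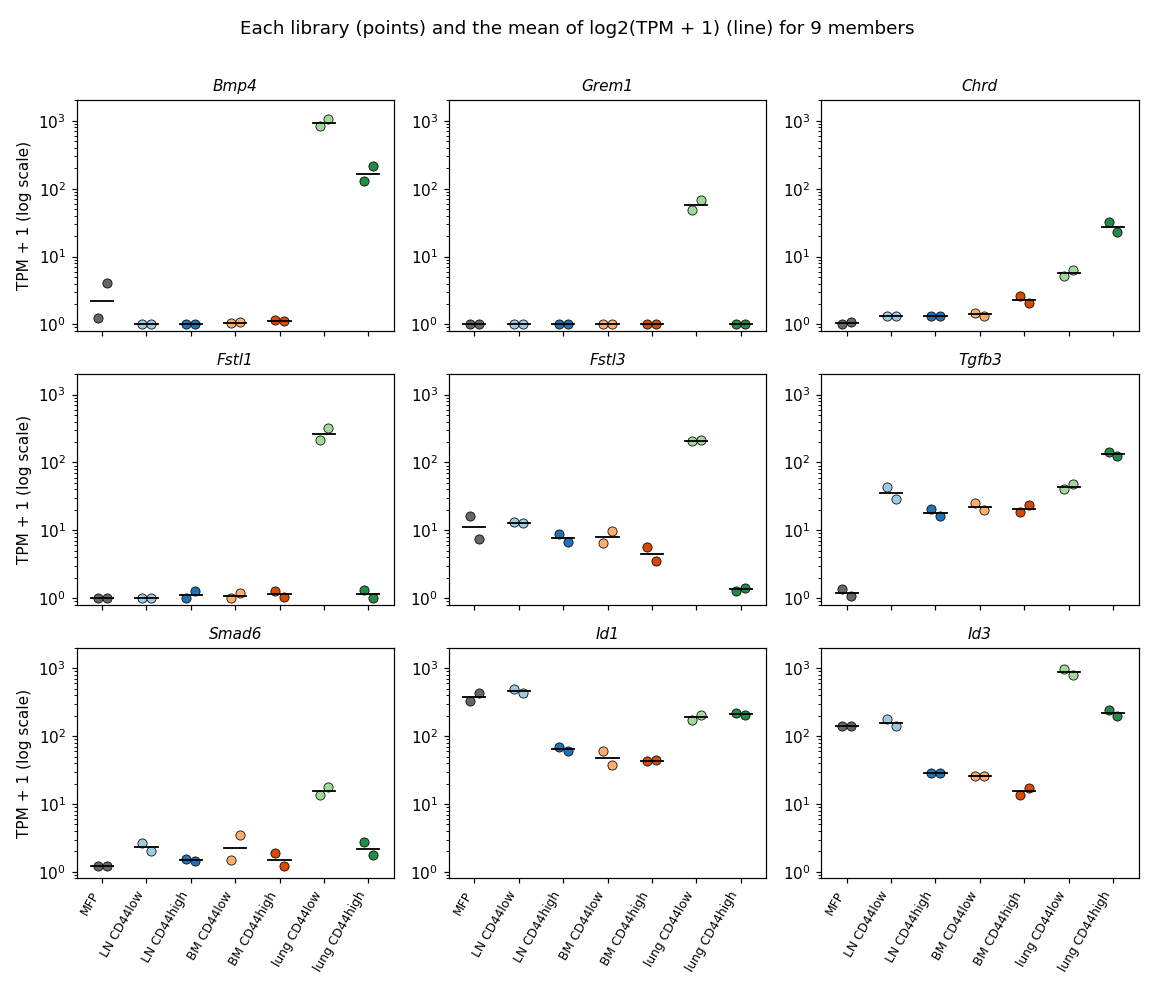
TPM + 1 on a log axis for 9 members in each of the 7 groups, where points are libraries and lines the group means of log2(TPM + 1). *Bmp4* is high in both lung groups, *Grem1*, *Fstl1* and *Fstl3* in lung CD44low alone, and *Chrd* and *Tgfb3* are highest in lung CD44high, while *Id1* is lower in LN CD44high, BM CD44low and BM CD44high.

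The promoters of *Bmp4*, *Grem1* and *Chrd* are shown because *Bmp4* was high in both lung groups, *Grem1* in lung CD44low alone, and *Chrd* was highest in lung CD44high. RefSeq windows (GRCm38.p6, the assembly also called mm10) matched 30 of the 42 members. The 250 bases before the transcription start were searched on both strands for GGCGCC, a GC-rich element bound by BMP SMADs, which is its own reverse complement. It was present in 9.59% of all 32851 promoters and in those of 9 of the 30 matched members (*Bmpr1a*, *Bmpr2*, *Chrd*, *Grem1*, *Id2*, *Id4*, *Ltbp4*, *Smad5* and *Tgfbr1*). The sequences run 5′ to 3′ toward the start site with the element in capitals, for *Grem1* (minus strand, chr2:113758649-113758898), *Chrd* (plus strand, chr16:20732877-20733126) and *Bmp4* (minus strand, chr14:46390670-46390919).
Grem1: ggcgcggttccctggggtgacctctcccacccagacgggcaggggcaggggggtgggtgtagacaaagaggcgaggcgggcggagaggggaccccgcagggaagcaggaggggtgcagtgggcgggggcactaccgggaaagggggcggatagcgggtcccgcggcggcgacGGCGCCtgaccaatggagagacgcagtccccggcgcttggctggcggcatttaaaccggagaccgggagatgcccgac
Chrd: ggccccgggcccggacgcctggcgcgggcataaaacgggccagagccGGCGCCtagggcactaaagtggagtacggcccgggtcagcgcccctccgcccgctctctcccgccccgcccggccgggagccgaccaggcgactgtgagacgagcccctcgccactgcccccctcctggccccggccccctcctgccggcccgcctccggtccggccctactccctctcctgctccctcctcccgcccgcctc
Bmp4: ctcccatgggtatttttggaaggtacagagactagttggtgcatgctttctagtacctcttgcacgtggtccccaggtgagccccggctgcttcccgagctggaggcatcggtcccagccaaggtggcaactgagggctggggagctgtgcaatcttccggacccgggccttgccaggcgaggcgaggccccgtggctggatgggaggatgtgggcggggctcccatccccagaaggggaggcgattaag
The element began 78 bases before the start of *Grem1* and 203 bases before that of *Chrd*, and these letters were not in the *Bmp4* window. A match is a description of the letters and not a measured binding site.

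Of the BMP receptors, the type I receptor *Bmpr1a* was highest in lung CD44low, at 5.39 and 4.42 TPM in MFP, 8.35 and 5.55 in LN CD44low and 3.24 and 3.32 in LN CD44high. In BM, *Bmpr1a* stood at 3.73 and 16.9 TPM in CD44low and 2.75 and 3.80 in CD44high. In lung, *Bmpr1a* stood at 61.6 and 96.9 TPM in CD44low and 16.7 and 10.7 in CD44high. It was higher than MFP in lung CD44low (log2 difference 3.73 ± 0.54, adjusted p = 0.000374) and lower in lung CD44high than in lung CD44low (log2 difference -2.44 ± 0.54, adjusted p = 0.00728, not passing without lung CD44low replicate 2 or lung CD44high replicate 2, adjusted p up to 0.069). The type II receptor *Bmpr2* stood at 3.40 and 2.94 TPM in MFP, 4.11 and 2.37 in LN CD44low and 1.94 and 2.11 in LN CD44high. In BM, *Bmpr2* stood at 1.89 and 3.56 TPM in CD44low and 1.75 and 2.07 in CD44high. In lung, *Bmpr2* stood at 3.15 and 4.28 TPM in CD44low and 11.5 and 7.70 in CD44high. The type I receptor *Acvr1* (ALK2) stood at 5.66 and 4.06 TPM in MFP, 7.22 and 6.88 in LN CD44low and 3.50 and 3.61 in LN CD44high. In BM, *Acvr1* stood at 4.17 and 2.67 TPM in CD44low and 3.39 and 3.69 in CD44high. In lung, *Acvr1* stood at 3.57 and 4.67 TPM in CD44low and 14.9 and 10.6 in CD44high. Both were highest in lung CD44high and higher there than in lung CD44low (*Bmpr2* log2 difference 1.16 ± 0.33, adjusted p = 0.0249, not passing without lung CD44low replicate 1 or 2 or lung CD44high replicate 1, adjusted p up to 0.148, log2 difference 0.89 to 1.42; *Acvr1* log2 difference 1.42 ± 0.29, adjusted p = 0.00465). *Bmpr1b* ranged from 0 to 0.19 TPM and was not tested.

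Among the SMADs, *Smad1* and *Smad6* were highest in lung CD44low and *Smad7* in lung CD44high. *Smad1*, a BMP receptor substrate, stood at 4.44 and 3.45 TPM in MFP, 4.26 and 3.12 in LN CD44low and 2.76 and 2.32 in LN CD44high. In BM, *Smad1* stood at 2.95 and 14.5 TPM in CD44low and 2.54 and 1.87 in CD44high. In lung, *Smad1* stood at 23.8 and 26.1 TPM in CD44low and 3.67 and 3.51 in CD44high. It was higher than MFP in lung CD44low (log2 difference 2.40 ± 0.51, adjusted p = 0.00393) and lower in lung CD44high than in lung CD44low (log2 difference -2.50 ± 0.51, adjusted p = 0.00493). *Smad6*, the inhibitor that acts mostly on BMP receptors, stood at 0.21 and 0.22 TPM in MFP, 1.65 and 1.05 in LN CD44low and 0.57 and 0.46 in LN CD44high. In BM, *Smad6* stood at 0.48 and 2.45 TPM in CD44low and 0.87 and 0.24 in CD44high. In lung, *Smad6* stood at 12.4 and 16.7 TPM in CD44low and 1.73 and 0.79 in CD44high. It was higher than MFP in lung CD44low (log2 difference 3.66 ± 0.40, adjusted p = 5.64e-05), and lung CD44high was lower than lung CD44low (log2 difference -2.80 ± 0.40, adjusted p = 0.000558). *Smad7*, the inhibitor of both arms, stood at 33.7 and 12.9 TPM in MFP, 20.5 and 10.4 in LN CD44low and 3.0 and 3.66 in LN CD44high. In BM, *Smad7* stood at 3.96 and 14.8 TPM in CD44low and 2.78 and 3.27 in CD44high. In lung, *Smad7* stood at 26.6 and 37.2 TPM in CD44low and 92.1 and 54.2 in CD44high. All 4 lung libraries exceeded the 8 LN and BM libraries (log2 difference 2.79 ± 0.36, adjusted p = 0.000115), and *Smad7* was lower than MFP in LN CD44high (log2 difference -2.35 ± 0.59, adjusted p = 0.018, not passing without LN CD44high replicate 1 or 2 or MFP replicate 1, adjusted p up to 0.139, log2 difference -3.01 to -1.69) and BM CD44high (log2 difference -2.45 ± 0.59, adjusted p = 0.0134, not passing without BM CD44high replicate 1 or 2 or MFP replicate 1, adjusted p up to 0.11, log2 difference -3.11 to -1.79).

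Of the TGF-beta receptor substrates, *Smad3* stood at 6.98 and 5.69 TPM in MFP, 6.53 and 5.61 in LN CD44low and 6.39 and 9.02 in LN CD44high. In BM, *Smad3* stood at 4.18 and 17.8 TPM in CD44low and 5.04 and 5.40 in CD44high. In lung, *Smad3* stood at 14.03 and 26.4 TPM in CD44low and 39.2 and 14.6 in CD44high. It was higher in lung than in LN and BM lines but with overlap (log2 difference 1.53 ± 0.37, adjusted p = 0.00519). *Smad2* stood at 52.2 and 34.00 TPM in MFP, 26.1 and 17.1 in LN CD44low and 23.2 and 24.2 in LN CD44high. In BM, *Smad2* stood at 21.2 and 37.3 TPM in CD44low and 16.1 and 17.2 in CD44high. In lung, *Smad2* stood at 26.8 and 36.3 TPM in CD44low and 26.3 and 16.5 in CD44high. It passed only in BM CD44high against MFP among the 12 comparisons (log2 difference -1.29 ± 0.35, adjusted p = 0.0227, not passing without BM CD44high replicate 1 or 2 or MFP replicate 1, adjusted p up to 0.155, log2 difference -1.59 to -0.99). *Smad4* ranged from 3.23 to 15.7 TPM and *Smad5* from 10.2 to 28.95 TPM. For *Smad6*, the palindrome GTCTAGAC bound by SMAD3 and SMAD4, its own reverse complement, was found across the start site (RefSeq, GRCm38.p6, minus strand, chr9:64022045-64022074), beginning 4 bases before it. It occurred in 0.213% of all windows of 300 bases around start sites and in 1 of the 30 matched members. The sequence is shown with the palindrome in capitals.
Smad6: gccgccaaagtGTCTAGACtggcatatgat

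Of the ID genes, which encode inhibitors of basic helix-loop-helix factors, *Id1*, *Id2* and *Id3* were among the most abundant members. *Id3* stood at 141 and 141 TPM in MFP, 177 and 139.9 in LN CD44low and 27.9 and 27.4 in LN CD44high. In BM, *Id3* stood at 24.7 and 24.7 TPM in CD44low and 12.8 and 16.5 in CD44high. In lung, *Id3* stood at 979 and 796 TPM in CD44low and 241 and 195 in CD44high. Lung CD44low was highest (log2 difference 2.63 ± 0.20, adjusted p = 3.96e-06 against MFP), while LN CD44high (log2 difference -2.31 ± 0.20, adjusted p = 4.19e-05), BM CD44low (log2 difference -2.47 ± 0.20, adjusted p = 2.58e-05) and BM CD44high (log2 difference -3.20 ± 0.20, adjusted p = 4.55e-06) were below MFP. *Id1* stood at 333 and 440.1 TPM in MFP, 499.5 and 435 in LN CD44low and 67.98 and 58.6 in LN CD44high. In BM, *Id1* stood at 58.7 and 37.3 TPM in CD44low and 41.7 and 43.6 in CD44high. In lung, *Id1* stood at 175 and 207 TPM in CD44low and 219.5 and 206 in CD44high. It was lower than MFP in LN CD44high (log2 difference -2.58 ± 0.24, adjusted p = 5.76e-05), BM CD44low (log2 difference -3.01 ± 0.24, adjusted p = 2.03e-05) and BM CD44high (log2 difference -3.14 ± 0.24, adjusted p = 1.37e-05), and also in lung CD44low (log2 difference -1.0 ± 0.24, adjusted p = 0.00641, not passing without MFP replicate 2, adjusted p up to 0.0561), so *Id1* and *Id3* moved in opposite directions between MFP and lung CD44low. *Id2* stood at 102 and 182 TPM in MFP, 524 and 1200.0 in LN CD44low and 270.4 and 182 in LN CD44high. In BM, *Id2* stood at 374 and 214 TPM in CD44low and 289 and 218 in CD44high. In lung, *Id2* stood at 79.7 and 70.9 TPM in CD44low and 36.3 and 27.8 in CD44high. It was higher than MFP in LN CD44low (log2 difference 2.53 ± 0.44, adjusted p = 0.00366, 1.94 without LN CD44low replicate 2 and 3.13 without LN CD44low replicate 1), and all 4 lung libraries were below the 8 LN and BM libraries (log2 difference -2.75 ± 0.27, adjusted p = 1.64e-05). *Id4* ranged from 0 to 0.78 TPM and was not tested.

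Lines sorted as CD44high and CD44low were compared within each site. In lung, 8 members were higher and 16 lower in CD44high (63.2% of those tested; 7 and 12 without the 5 members that passed the filter through 1 group), where 30.7% of all genes were called (12.2% higher, 18.5% lower), and the median was -0.67 for members and -0.01 for all genes. With a log2 difference over 2 also required, 15 members passed there (11.3% of all genes). These included *Fstl1*, *Grem1* and *Gdf15*, which passed the filter through lung CD44low alone. In LN, 2 members were lower and none higher, where 0.378% of all genes were called (0.189% higher, 0.189% lower). These were *Id1* (log2 difference -2.87 ± 0.24, adjusted p = 0.000549) and *Id3* (log2 difference -2.47 ± 0.20, adjusted p = 0.000549), with both CD44high libraries below both CD44low libraries in each case. At an unadjusted p under 0.05, 8 of the 38 tested members passed in LN, where 10.1% of all genes did.

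In BM, no member passed with limma, where 0.15% of all genes were called (0.0717% higher, 0.0782% lower), and 4 of 38 members had an unadjusted p under 0.05, as did 7.4% of all genes. Leaving out BM CD44low replicate 1 gave 6 members called there, where 15.7% of all genes were then called, and leaving out replicate 2 gave 0, where 0.117% were. For *Tgfb1*, *Smad1*, *Fst* and *Bmpr1a*, replicate 1 of BM CD44low was near the BM CD44high libraries and replicate 2 was above all of them. The difference between sites was tested directly. The CD44 difference in lung exceeded that in LN for 10 members and fell below it for 10, where 19.5% of all genes were called (8.93% higher, 10.6% lower), and against BM the numbers were 4 and 10, where 15.3% were called (6.43% higher, 8.86% lower). With median-ratio scaling these were 9 and 11 against LN (6.91% and 12.5% of all genes), and 5 and 11 against BM (4.97% and 10% of all genes). Without the 5 members that passed the filter through 1 group, the unscaled counts were 9 and 6 against LN, and 3 and 6 against BM. With a log2 difference over 2 also required, 7 members passed against BM (8.66% of all genes). *Fstl1*, *Grem1* and *Gdf15*, which passed the filter through lung CD44low alone, were among them.

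**Figure D3:**
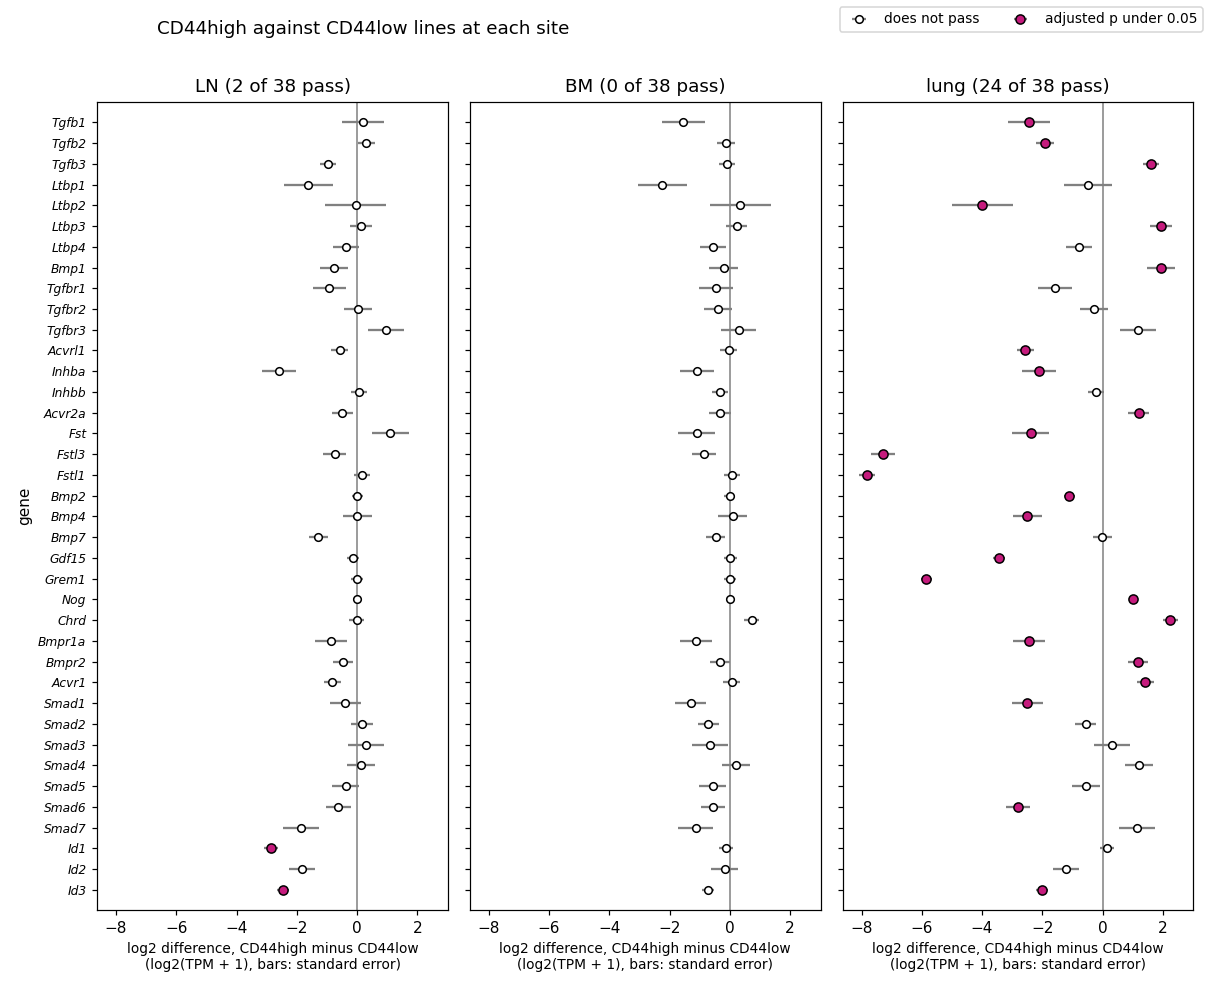
Log2 difference of CD44high minus CD44low on log2(TPM + 1) for the 38 tested members in LN, BM and lung, with standard errors as bars and filled points for adjusted p under 0.05. Lung has 24 filled points, LN has 2 (*Id1* and *Id3*) and BM has 0.

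The rest of the pathway was followed in lists of other genes, given for the lung lines against the LN and BM lines, where 35.9% of all genes were called higher and 24% lower. All 7 tested other antagonists were higher, among them *Dcn* (decorin, a proteoglycan that binds TGF-beta and is also on the fibroblast list), at 4091 and 4315 TPM in lung CD44low and 166 and 78.9 in lung CD44high (log2 difference 8.80 ± 0.21, adjusted p = 2.33e-09), *Nbl1*, at 347 and 322 TPM in lung CD44low and 16.9 and 11.3 in lung CD44high (log2 difference 5.62 ± 0.21, adjusted p = 2.38e-08), and *Crim1*, at 69.7 and 114 TPM in lung CD44low and 385 and 176 in lung CD44high (log2 difference 4.36 ± 0.29, adjusted p = 1.23e-06). Of 18 TGF-beta target genes, 13 were higher and 2 lower. The largest differences were in *Acta2* (smooth muscle actin), at 657 and 711 TPM in lung CD44low and 1.36 and 0.56 in lung CD44high (log2 difference 4.92 ± 0.19, adjusted p = 2.98e-08), *Fn1* (fibronectin; log2 difference 3.46 ± 0.53, adjusted p = 0.000311) and *Cdkn2b* (a cell cycle inhibitor), at 113 and 71.6 TPM in lung CD44low and 0.49 and 0.26 in lung CD44high (log2 difference 3.43 ± 0.17, adjusted p = 1.43e-07). *Acta2* did not exceed 0.82 TPM in any LN or BM library or 1.36 TPM in lung CD44high, so its pooled difference came from lung CD44low, as did that of *Cdkn2b*, at 66.2 and 51.9 TPM in MFP. *Acta2*, *Tagln*, *Col1a1* and *Col1a2* of the target list are also on the smooth muscle or fibroblast lists. Of 9 BMP target genes, 8 were higher and 1 lower, with *Atoh8* at 101 and 104 TPM in lung CD44low and 20.8 and 23.3 in lung CD44high (log2 difference 3.87 ± 0.39, adjusted p = 1.95e-05) and *Gata3* at 2.14 and 2.0 TPM in lung CD44low and 187 and 305 in lung CD44high (log2 difference 3.04 ± 0.25, adjusted p = 4.69e-06), where only the lung CD44high libraries exceeded the LN and BM range of 1.15 to 4.08 TPM.

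Among the receptors and coreceptors, 2 of 5 tested were higher and 1 lower, led by *Eng* (endoglin, a TGF-beta coreceptor), at 153 and 174 TPM in lung CD44low and 5.73 and 8.51 in lung CD44high (log2 difference 4.54 ± 0.16, adjusted p = 1.43e-08). Of 7 tested activators of latent TGF-beta, 3 were higher and 2 lower. *Thbs1* (thrombospondin 1, which can release TGF-beta from its latent complex) stood at 3398 and 5389 TPM in lung CD44low and 473 and 373 in lung CD44high (log2 difference 3.43 ± 0.41, adjusted p = 5.85e-05), and *Itgb5*, an integrin subunit, at 239 and 668 TPM in lung CD44low and 339 and 185 in lung CD44high (log2 difference 3.81 ± 0.33, adjusted p = 6.50e-06). Of the other ligands, 2 of 4 were higher and 1 lower, and *Gdf6* was found mainly in lung CD44high, at 0.03 and 0.14 TPM in lung CD44low and 12.1 and 11.3 in lung CD44high. It passed the filter on low values through that group alone, as *Smad9*, *Tagln* and *Col1a2* did through lung CD44low. Without these, the lists had 1 of 3 other ligands, 11 of 16 TGF-beta targets, 7 of 8 BMP targets and 5 of 11 other SMAD regulators higher. Of 12 other SMAD regulators, 6 were higher and 3 lower. Between the lung lines, TGF-beta targets were lower in CD44high for 11 of 18 and higher for 1, with a median of -2.04 beside -0.01 over all genes, where 18.5% of all genes were lower and 12.2% higher. Without *Tagln* and *Col1a2* these were 9 and 1 of 16. The summed fibroblast and smooth muscle lists, which share 4 of these targets, were also highest in lung CD44low, and their part was not tested. The smooth muscle or myoepithelial list summed to 757 to 823 TPM there and to 594 to 656 TPM in MFP. Its members differed. *Acta2* made up most of the sum in lung CD44low. *Krt14* was listed at 0 there and stood at 594 and 655 TPM in MFP, and *Oxtr* was highest in lung CD44high, at 33.5 and 49.5 TPM.

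Single-cell libraries held 1 library per line, so no test between lines was possible, and levels are given as counts per 10000 of all counts in kept cells with exact Poisson 95% intervals that cover counting error only. Kept cells numbered 1236 in lungH, 348 in lungL and 2562 in lymphH, with a median of 557, 4011 and 585 counts per cell. A count of 0 is given with the level that 3 counts would have, a floor set apart from those intervals. *Cd44* stood at 8.51 in lungL, above 4.99 in lungH, against the order of their labels, and at 4.49 in lymphH. *Epcam* had 0 counts in lungL and 3 in lungH, against 936 in lymphH. The summed level of the 10 epithelial markers was 4.37 in lungH, 1.62 in lungL and 10.7 in lymphH. Not all of them went that way, and *Krt18* stood at 2.59 in lungH, 0.522 in lungL and 1.17 in lymphH. A member was taken to differ where the ratio was at least 2, the intervals were apart and at least 20 counts were seen. By this rule 4 members were higher and 9 lower in lungH than in lungL, where 12.2% and 12.4% of genes were (24.6% in either direction). In lungL against lymphH 19 were higher and 3 lower (15.8% and 12.6% of genes, 28.4% in either direction), and in lungH against lymphH 15 were higher and 5 lower (14.4% and 11.9% of genes, 26.3% in either direction).

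*Grem1* stood at 0.176 (0.125 to 0.241) in lungH, 21.4 (20.8 to 22) in lungL and 0 counts in lymphH, with a floor of 0.00567 per 10000. It was seen in 67.0% of lungL cells, 1.54% of lungH cells and 0 of 2562 lymphH cells. With each cell thinned to 1000 counts, which left out 1014, 110 and 2256 cells of lungH, lungL and lymphH, these shares were 60.5% in lungL, 1.35% in lungH and 0% in lymphH. *Fstl1* stood at 0.00905 (0.0011 to 0.0327) in lungH, 9.33 (8.93 to 9.74) in lungL and 0.0132 (0.00532 to 0.0273) in lymphH, a lungH to lungL ratio of 0.001 (0.0001 to 0.0035). Both genes were therefore highest in lungL, as they were in bulk lung CD44low. *Inhba* stood at 0.778 (0.666 to 0.903) in lungH, 3.62 (3.38 to 3.88) in lungL and 1.25 (1.15 to 1.35) in lymphH and *Fst* at 0.109 (0.0696 to 0.162) in lungH, 2.17 (1.98 to 2.37) in lungL and 0.503 (0.444 to 0.567) in lymphH, both lower in lungH than in lungL. *Chrd* stood at 0.271 (0.207 to 0.349) in lungH, 0.045 (0.0216 to 0.0828) in lungL and 0.00378 (0.00046 to 0.0137) in lymphH and *Nog* at 0.199 (0.145 to 0.267) in lungH, 0.081 (0.048 to 0.128) in lungL and 0 counts in lymphH, with a floor of 0.00567, and both were higher in lungH than in lungL, with ratios of 6.03 (3.06 to 13.2) and 2.46 (1.39 to 4.52). As a mean of each cell's own level those ratios were 1.06 and 1.54.

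Of the members called in bulk between the lung lines, 2 met the rule of size in single cells in the opposite direction. *Bmp4* stood at 1.6 (1.43 to 1.77) in lungH, 0.5 (0.411 to 0.602) in lungL and 0.0189 (0.00907 to 0.0348) in lymphH, so lungH was above lungL by a ratio of 3.19 (2.57 to 3.99), whereas bulk lung CD44high was below lung CD44low. As a mean over cells of each cell's own level, the ratio was 1.87. Shares of cells with a *Bmp4* count were 12.2% in lungH, 17.8% in lungL and 0.390% in lymphH, where the gene was near 0 in bulk, and after thinning 11.7%, 4.20% and 0%. *Tgfb3* stood at 0.593 (0.495 to 0.703) in lungH, 1.8 (1.62 to 1.98) in lungL and 0.286 (0.242 to 0.335) in lymphH, a lungH to lungL ratio of 0.33 (0.269 to 0.403), whereas bulk lung CD44high was above lung CD44low. *Acvr1* and *Ltbp3*, higher in bulk lung CD44high, also had ratios below 1 in single cells, at 0.535 (0.39 to 0.729) and 0.746 (0.673 to 0.826), short of the rule. Of the other members called in bulk between the lung lines, 7 were lower and 2 higher in both kinds of data. Among these, *Fstl1*, *Bmp2*, *Grem1* and *Nog* passed the bulk filter through 1 lung group alone, so the filter fixed their bulk direction. *Id3* met the rule only just, at 0.498 (0.452 to 0.548), and fell short of it with other cell filters. How many of all genes went the same way in both kinds of data was not counted. A further 10, *Acvr1* and *Ltbp3* included, did not meet the rule in single cells, and 3 had under 20 counts. *Ltbp1*, with no call between the lung lines in bulk, stood at 0.493 (0.405 to 0.595) in lungH, 2.93 (2.71 to 3.17) in lungL and 0.908 (0.828 to 0.993) in lymphH, a lungH to lungL ratio of 0.168 (0.136 to 0.206). LungH was also below lymphH for this gene, with a ratio of 0.543 (0.437 to 0.67), whereas bulk lung CD44high was far above LN CD44high. Which of the bulk isolates the single-cell libraries were made from is not given in the sources used here.

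In the ID genes, *Id3* stood at 2.89 (2.67 to 3.12) in lungH, 5.8 (5.49 to 6.13) in lungL and 0.993 (0.91 to 1.08) in lymphH, in the same order as bulk lung CD44low, lung CD44high and LN CD44high. *Id2* stood at 3.31 (3.07 to 3.56) in lungH, 1.85 (1.67 to 2.03) in lungL and 6.82 (6.6 to 7.04) in lymphH, highest in lymphH. *Smad7* stood at 4.48 (4.2 to 4.77) in lungH, 2.26 (2.06 to 2.46) in lungL and 0.94 (0.859 to 1.03) in lymphH, higher in both lung libraries than in lymphH. *Smad6* stood at 0.778 (0.666 to 0.903) in lungH, 0.639 (0.539 to 0.754) in lungL and 0.166 (0.133 to 0.205) in lymphH, with a lungH to lungL ratio of 1.22 (0.969 to 1.53), so the lung libraries did not differ by the rule of size, whereas bulk lung CD44high was lower. *Bmp7* stood at 0 counts in lungH, with a floor of 0.0136, 0.0045 (0.00011 to 0.0251) in lungL and 0.104 (0.0784 to 0.135) in lymphH. *Inhbb* stood at 0.249 (0.187 to 0.324) in lungH, 0.027 (0.00992 to 0.0588) in lungL and 0.00946 (0.00307 to 0.0221) in lymphH, a lungH to lungL ratio of 9.21 (3.97 to 26.2), although it did not pass between the lung lines in bulk (log2 difference -0.23 ± 0.27, adjusted p = 0.597). The summed level of the 10 fibroblast markers was 22.1 per 10000 in lungL, 0.670 in lungH and 0.132 in lymphH. That of 8 smooth muscle or myoepithelial markers was 59.96, 0.167 and 0.214. Both sums moved with *Grem1* and *Fstl1*, and their part in the result was not tested. In lungL, *Col1a2* (14.4) and *Acta2* (45.6) made up most of the 2 sums. There 8 of the 10 fibroblast markers had a count, *Dcn* stood at 0.0991 and *Lum* and *Dpt* had 0 counts. Bulk lung CD44low instead had *Dcn* at 4091 and 4315 TPM and *Lum* at 362 and 217 TPM.

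**Figure D4:**
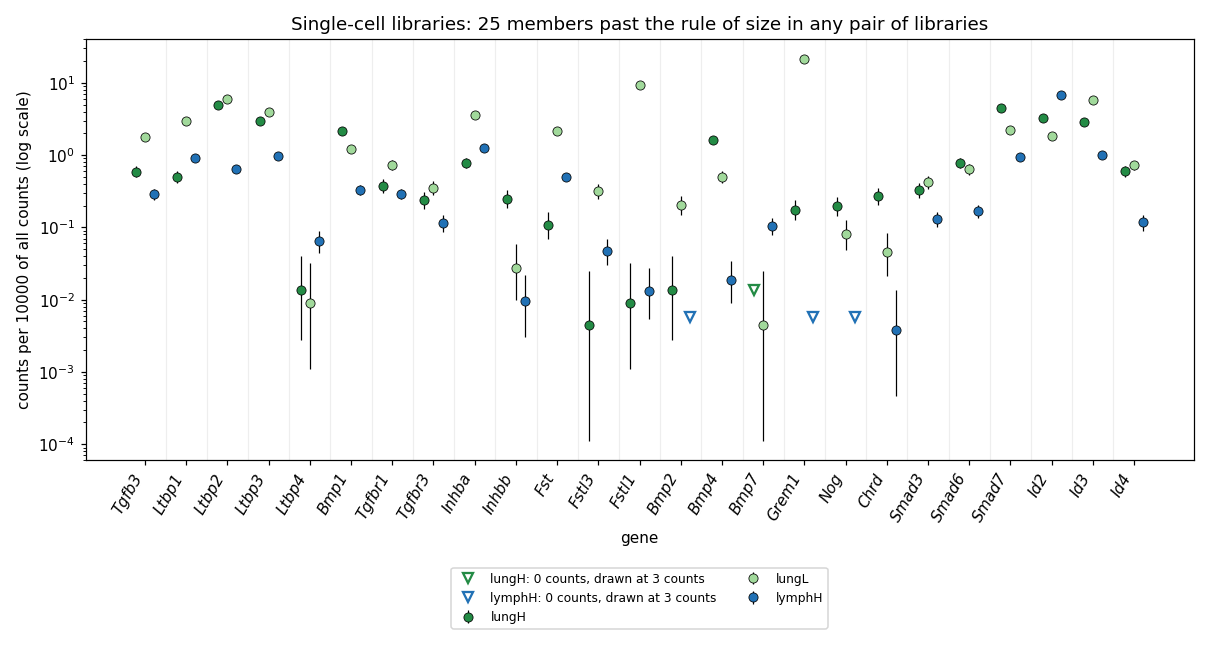
Counts per 10000 of all counts (log axis) for the 25 members that met the rule of size in any pair of single-cell libraries, with exact Poisson 95% intervals as bars and open triangles where no count was seen. *Grem1* and *Fstl1* are highest in lungL, and *Bmp4* and *Chrd* in lungH.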

How the data were processed

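Bulk RNA was measured in 14 libraries and single cells in 3. The authors made the bulk libraries with a modified SMART-seq2 protocol and deposited TPM values per gene (reads aligned with STAR to mm10 and quantified with RSEM on a GENCODE annotation, per their methods). The single-cell files are deposited raw counts per gene and barcode (ddSeq/SureCell, quantified with kallisto per their methods), not normalized by the authors. No column was left unmapped (0). Replicates were distinct clonal isolates from different mice, and p-values measure the spread between them.

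TPM keep no depth, so tests ran on log2(TPM + 1) with limma 3.58.1 (R 4.3.3) over 15348 genes at 1 TPM or more in at least 2 libraries, as 7 group means with a trended prior, and Benjamini-Hochberg adjustment over all of them. An exact permutation test of 2 against 2 cannot go below p = 0.333, so none is given. Cells with more than 250 genes and under 10% mitochondrial counts were kept (Python 3.11.15, numpy 2.4.6, pandas 2.3.3, scipy 1.17.1); doublets were not called, and the barcodes are running numbers, so barcodes shared between libraries could not be counted. All 42 members are described in role order, with values per library for those passing in at least 1 comparison, the rest by range, and up to 3 genes of each pathway list are named. The members and lists were chosen with earlier results of these data known. Same-numbered replicates did not deviate together (r from -0.194 to 0.168 over 21 pairs of groups), so no block was used. Only the limma step was tested on simulated data, for 3 of the comparisons. Alternatives were a pseudocount of 0.1, no filter, a minimum of 5 TPM, median-ratio scaling, a fold threshold, a replicate block, each library left out, and, for single cells, other cell filters and the mean per cell. A library left alone in its group was assumed to vary like the others.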

Additional observations from a re-analysis of the deposited data

Results flagged for a closer look

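The CD44high against CD44low difference differed between lung and another site for the members below, by limma's test of the difference itself (adjusted p under 0.05). Values are the difference in lung minus that at the other site, on log2(TPM + 1).

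Against LN it was more positive in lung for *Smad7* (3.0), *Id1* (3.02), *Bmp1* (2.7), *Tgfb3* (2.57), *Chrd* (2.26), *Acvr1* (2.24), *Ltbp3* (1.82), *Acvr2a* (1.68) and *Bmpr2* (1.61). It was more negative for *Fstl3* (-6.55), *Fst* (-3.48), *Tgfb2* (-2.22) and *Smad6* (-2.18). Where a group is listed at 0 no difference is given, and limma's adjusted p was 0.00628 for *Acvrl1* and 0.0287 for *Bmp4* (both more negative).

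Against BM it was more positive in lung for *Ltbp3* (1.73), *Tgfb3* (1.7) and *Chrd* (1.52), and more negative for *Fstl3* (-6.43), *Bmp4* (-2.59), *Smad6* (-2.23), *Tgfb2* (-1.77) and *Id3* (-1.29). Where a group is listed at 0, limma's adjusted p was 0.00162 for *Acvrl1* (more negative). The lung lines are shared by both sets of values.

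With single libraries removed in turn (14 fits), the test against LN missed the threshold for *Acvr2a* (in 11 fits, adjusted p up to 0.151, log2 difference 1.19 to 2.17), *Bmpr2* (in 10 fits, adjusted p up to 0.126), *Ltbp3* (in 10 fits, adjusted p up to 0.113, log2 difference 1.29 to 2.36), *Bmp4* (in 7 fits, adjusted p up to 0.105), *Smad7* (in 6 fits, adjusted p up to 0.122), *Fst* (in 5 fits, adjusted p up to 0.0891), *Smad6* (in 5 fits, adjusted p up to 0.0845) and *Bmp1* (without LN CD44low replicate 1, LN CD44high replicate 2, lung CD44low replicate 1 or lung CD44high replicate 1, adjusted p up to 0.0867, log2 difference 2.14 to 3.25).

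The test against BM did so for *Ltbp3* (in 12 fits, adjusted p up to 0.154, log2 difference 1.19 to 2.27), *Bmp4* (in 5 fits, adjusted p up to 0.108), *Tgfb2* (without BM CD44high replicate 1 or 2, lung CD44low replicate 2 or lung CD44high replicate 1, adjusted p up to 0.0738), *Smad6* (without BM CD44high replicate 1, lung CD44low replicate 2 or lung CD44high replicate 2, adjusted p up to 0.101, log2 difference -2.84 to -1.62), *Tgfb3* (without BM CD44high replicate 1, lung CD44low replicate 1 or lung CD44high replicate 1, adjusted p up to 0.0668), *Chrd* (without BM CD44high replicate 2, adjusted p up to 0.064) and *Id3* (without BM CD44high replicate 2, adjusted p up to 0.057). *Fstl1*, *Bmp2*, *Gdf15*, *Grem1* and *Nog* are left out here, since each passed the filter on low values through 1 lung group alone.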

How the results depend on the processing

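Depth limits the single-cell counts, and TPM hide it in bulk. Of the 176 member differences that passed, the number that no longer passed was 12 with a pseudocount of 0.1, 24 without a filter, 12 with median-ratio scaling and 69 when a log2 difference over 2 was also required, and none changed direction. With a minimum of 5 TPM, all 161 that could be tested passed. Requiring that fold left 10 members in lung CD44high against MFP, 15 in lung CD44high against lung CD44low, 12 in the lung lines against LN and BM and 7 in the CD44 difference in lung against that in BM, which was 8 with the pseudocount of 0.1. Of the counts left by that fold, all but the first include members that passed the filter through lung CD44low alone. The cause was not tested beyond the stricter rule itself.

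Leaving out 1 library kept 111 of the 176 differences in every fit. Each count of members passing is followed by the share of all genes that passed in the same fit and the library left out. Against MFP, the counts ranged from 4 (8.37%, MFP replicate 2) to 8 (17.8%, LN CD44low replicate 1) for LN CD44low, 6 (13.4%, LN CD44high replicate 1) to 12 (29.7%, BM CD44low replicate 1) for LN CD44high, 6 (13.7%, MFP replicate 1) to 12 (31.9%, BM CD44low replicate 1) for BM CD44low, 8 (14.8%, BM CD44high replicate 1) to 15 (33.4%, BM CD44low replicate 1) for BM CD44high, 17 (34.1%, MFP replicate 2) to 23 (50.8%, BM CD44low replicate 1) for lung CD44low and 11 (24.9%, lung CD44high replicate 1) to 24 (42.2%, BM CD44low replicate 1) for lung CD44high. They ranged from 2 (0.534%, BM CD44low replicate 1) to 3 (0.99%, LN CD44low replicate 2) for CD44 status in LN, 0 (0.117%, BM CD44low replicate 2) to 6 (15.7%, BM CD44low replicate 1) for CD44 status in BM and 17 (18.6%, lung CD44low replicate 1) to 26 (37.1%, BM CD44low replicate 1) for CD44 status in lung. They ranged from 28 (50.6%, lung CD44low replicate 2) to 33 (60.8%, LN CD44low replicate 1) for lung lines against LN and BM lines. For the others they ranged from 13 (12.9%, LN CD44high replicate 1) to 23 (26.6%, BM CD44low replicate 1) for CD44 difference in lung against that in LN and from 8 (10.7%, BM CD44high replicate 1) to 19 (20.4%, BM CD44low replicate 2) for CD44 difference in lung against that in BM.

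With the replicate number as a block, which the check of pairing did not favor, the counts were 6, 10, 9 and 14 for LN and BM against MFP (12.2%, 21.4%, 20.9% and 24.6% of all genes), 22 and 17 for lung against MFP (42.4% and 33.7%), 2, 0 and 24 for CD44 status in LN, BM and lung (0.228%, 0.137% and 27.8%), 31 for lung against LN and BM (58.2%), and 18 and 13 for the differences between sites (17.2% and 13.5%), and 10 single differences no longer passed. Of 126 single-cell levels, 13 left their 95% interval with all barcodes, 14 with cells over 500 genes, 57 as a mean of each cell's own level and 0 under 20% mitochondrial counts. Of the 57, 19 moved by over 1.5 times, among them *Ltbp2*, *Ltbp3*, *Bmp1* and *Grem1* in lungH, *Bmp4* in lungL, *Chrd* in both lung libraries and *Fst* and *Bmp7* in lymphH. Of the 55 pairs of libraries that met the rule of size, 49 kept a difference of 2-fold or more as that mean and 0 changed direction. The other 6 were *Bmp4* (1.87), *Nog* (1.54) and *Chrd* (1.06) for lungH against lungL, *Tgfbr3* for lungL (1.52) and lungH (1.86) against lymphH, and *Fst* (0.502) for lungH against lymphH. Under the other cell filters, *Id3* for lungH against lungL was 0.506 with all barcodes, 0.539 with cells over 500 genes and 0.508 under 20% mitochondrial counts. With cells over 500 genes, *Tgfb3* (1.7) and *Id2* (0.507) for lungH against lymphH were also under 2-fold.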
